A study of Mus musculus with 16 samples.

Results

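The 4 genes described here, Tfec, Mitf, Tfe3 and Tfeb, form the Mitf/TFE family of transcription factors. They were found by gene symbol among the probe sets of the arrays, where they have 5 probe sets of their own, 1 each for Tfec, Tfe3 and Tfeb and 2 for Mitf, among 45037 probe sets and 18193 genes.

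CCE mouse embryonic stem (ES) cells, a cultured line kept on irradiated embryonic fibroblast feeders with LIF, were allowed to form embryoid bodies without LIF, which start to make blood and vessel cells. Cells were fixed in ethanol and acetic acid, stained with antibodies and sorted by flow cytometry. The 8 populations are the positive and the negative fraction of each of 4 sorts: for VEGF-R2 on day 2.5, for CD41 on day 3.5, and for CD144 on days 3.5 and 6.5. The labels give 1 marker for each fraction, but the study also writes of the CD41 positive fraction as VEGF-R2 positive, of the CD41 negative fraction as VEGF-R2 negative, and of CD144 positive cells as VEGF-R2 positive. The CD41 comparison may therefore set double positive against double negative cells, and Kdr (VEGF-R2) was 30.6-fold higher in the CD41 positive fraction after adding 6 to each signal. VEGF-R2 marks early mesoderm with the hemangioblast, the common precursor of blood and vessel, CD41 marks the first blood progenitors, and CD144 (VE-cadherin) is the cadherin of endothelial junctions. The sources name no mutation or drug for any population, and all came from 1 cell line. Each population was measured on 2 arrays from separately conducted experiments. The labels give CD41 and CD144 for separate fractions, so a cell that carried both could fall into both positive fractions of day 3.5. The study's flow cytometry found CD41 on few CD144 positive cells, at day 3.5 by a figure legend but at day 6.5 by its text. The study also describes weak CD144 on CD41 positive cells of embryoid bodies. At day 3.5 the mean Itga2b (CD41) signal was 1739 in CD144 positive cells, 201 in CD144 negative cells and 6411 in CD41 positive cells. Mean Cdh5 (CD144) signal was 1340 in CD41 positive, 24.2 in CD41 negative and 1974 in CD144 positive cells. How many cells the positive fractions shared was not tested.

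Proteins of the family bind DNA as dimers, with each other, through a basic helix-loop-helix and a leucine zipper, and their preferred sites are CACGTG and CATGTG. Mitf is known as the master regulator of melanocytes and also acts in osteoclasts, mast cells and the pigment epithelium of the eye. Tfeb and Tfe3 are best known for turning on genes of lysosomes and autophagy when nutrients are short, and they are held in the cytoplasm by phosphorylation at the lysosome surface. Tfec is known from cells of the macrophage lineage. The activity of these proteins is set in large part by their place in the cell, which an RNA measurement does not show.

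The stretch of DNA just before the start of Tfec is shown because Tfec had the largest called differences in the family. All 4 genes were found in the RefSeq tables, with 9 promoter windows in all. Tfec lies on the minus strand of chromosome 6 (GRCm38.p6, 16830927 to 16898464). Mitf lies on the plus strand of chromosome 6 (97807002 to 98021360), Tfeb on the plus strand of chromosome 17 (47737037 to 47792416) and Tfe3 on the plus strand of chromosome X (7762530 to 7775202). The 250 bases before the start that RefSeq gives for Tfec, chr6:16898442-16898691, follow 5′ to 3′ on the minus strand, which overlaps the RefSeq span of the gene by 23 bases, with each GATA and each GGAA (or TTCC, the same letters on the other strand) in capitals.
Tfec promoter: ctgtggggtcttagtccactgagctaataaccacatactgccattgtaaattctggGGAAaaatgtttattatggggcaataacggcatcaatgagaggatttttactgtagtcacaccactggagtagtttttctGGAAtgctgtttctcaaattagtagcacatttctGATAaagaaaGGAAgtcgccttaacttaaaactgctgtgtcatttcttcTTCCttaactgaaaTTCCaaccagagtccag
This window held 1 GATA, the core letters of sites of GATA factors, and 5 GGAA, the core letters of sites of ETS factors such as PU.1. GATA was found on either strand in 53.6% and GGAA in 93.4% of the 32851 mouse promoter windows of this length, so short letters of this kind are common. Neither CACGTG nor CATGTG was found in the window of Tfec, nor in the 3 windows of Mitf, the 2 of Tfe3 or the 3 of Tfeb. CACGTG was found in 6.02% and CATGTG in 12.3% of all windows. The G and C content of the Tfec window was 39.2%, against 59.6% in the first window of Mitf and 59.6% in the first window of Tfe3.

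Signals are MAS5 values on a linear scale, each array scaled to the same trimmed mean. Tests were made on log2(signal + 6) with limma over all 45037 probe sets and all 16 arrays, and a probe set was called when its Benjamini-Hochberg adjusted p was under 0.05. A difference on this scale understates the change of a dim probe set, and levels of different probe sets are not compared. The array number, 2 per population, limits the precision. In these sorted samples fewer cells of a type and less RNA per cell cannot be told apart.

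The sorting markers followed the labels: Kdr (VEGF-R2) was 2.81-fold higher in VEGF-R2 positive than negative cells, Itga2b (CD41) was 29.2-fold higher in CD41 positive cells, and Cdh5 (CD144) was 57.7-fold and 66.4-fold higher in CD144 positive cells at days 3.5 and 6.5, all on the offset scale. All 10 endothelial markers were called higher in CD41 positive, in CD144 positive day 3.5 and in CD144 positive day 6.5 cells than in their negative cells, and 8, 4 and 5 of 9 blood markers were. Summed blood marker signals ran from 51487 to 65470 on CD41 positive arrays and from 3042 to 3209 on CD144 positive arrays of day 3.5, and at day 6.5 from 19301 to 21684 in CD144 positive and from 18546 to 20935 in CD144 negative cells. The sums of day 6.5 were mostly embryonic globin, Hba-x (12446 against 12603) and Hbb-y (2995 against 6072), while Spi1 (705 against 87.8), Fcer1g (832 against 6.46) and Ptprc (254 against 20.7) differed. Positive arrays also stood apart from negative arrays technically. The geometric mean of the spike-in control signals lay between 8122 and 13755 for the 8 positive samples, and between 2490 and 4309 for the 8 negative ones, and duplicates of a positive population (Spearman 0.8725 to 0.8954 over probe sets) resembled each other less than duplicates of a negative one (0.9452 to 0.9553). Each comparison of positive with negative cells is also a comparison of these sets of arrays, and the part of this in the results was not tested.

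Tfec was low at day 2.5 and in the negative cells of day 3.5, and far higher in the CD41 positive and CD144 positive cells. In VEGF-R2 positive cells its signal was 8.74 and 24.1 on the 2 arrays, and in VEGF-R2 negative cells 10.6 and 62.3. In CD41 positive cells it was 169 and 265, against 6.92 and 2.14 in CD41 negative cells. In CD144 positive cells of day 3.5 it was 236 and 215, against 5.48 and 20.7 in CD144 negative cells. These 4 positive arrays of day 3.5 lay far above the 4 negative ones, with no overlap. In CD144 positive cells of day 6.5 the signal was 265 and 305, and in CD144 negative cells of that day 123 and 80.7, so that the negative cells too were above the median of all signals on these arrays, 85.8, on 1 of 2 arrays.

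**Figure D1:**
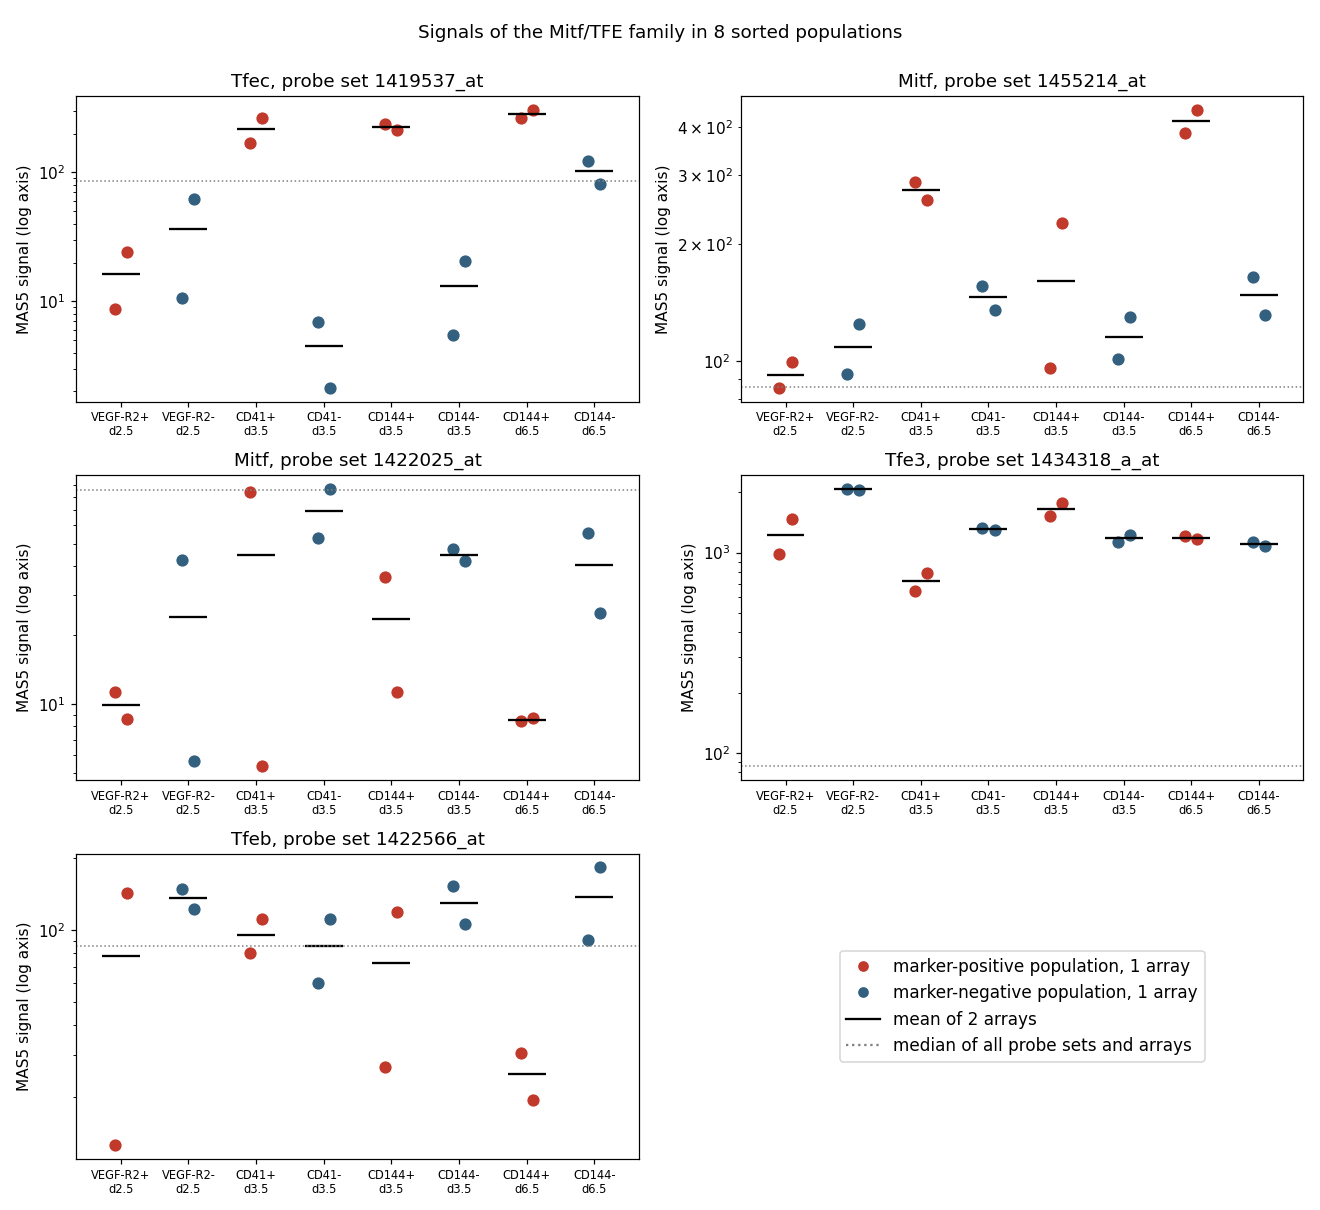
MAS5 signal (log axis) of the 5 probe sets of the family on every array, 2 points for each of 8 sorted populations, with the mean of the 2 arrays as a bar and the median of all signals, 85.8, as a dotted line. Both Tfec points are above the line in the 3 positive populations of days 3.5 and 6.5, and 1 of 2 is in CD144 negative cells of day 6.5, Mitf (1455214_at) is highest in CD144 positive cells of day 6.5, Tfe3 is far above the line everywhere, and Tfeb and the other Mitf probe set scatter around or under it.

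Between the CD41 sorted fractions, Tfec was higher in the positive one by 4.41 on the log2 scale (SE 0.69, limma adjusted p = 0.000111), 21.2-fold on the offset scale. CD41 positive cells also exceeded VEGF-R2 positive cells by 3.37 (SE 0.69, limma adjusted p = 0.00413). Of the family's 5 probe sets, 1 was called higher and 1 lower between the CD41 fractions, where 29.3% of all probe sets were called, and 2 were called higher and 1 lower from VEGF-R2 to CD41 positive cells, where 9.84% were. In the interaction, the change of Tfec from VEGF-R2 positive to CD41 positive cells exceeded that from VEGF-R2 negative to CD41 negative cells by 5.09 (SE 0.98, limma adjusted p = 0.00445), and 4.73% of all probe sets were called in this interaction. The sum of endothelial markers in CD41 positive cells, 11147 to 18289, was close to that in CD144 positive cells of day 3.5, 16447 to 18269, and their part in the Tfec signal of CD41 positive cells was not tested.

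Within day 3.5, CD144 positive cells exceeded CD144 negative cells in Tfec by 3.72 (SE 0.69, limma adjusted p = 0.000935), 13.2-fold on the offset scale, in a comparison where 20.0% of probe sets were called. The study's own choice of Tfec, described below, used these same arrays. At day 6.5 the difference was 1.46 (SE 0.69), which did not pass the test (limma adjusted p = 0.163), although the arrays did not overlap. It was called with an added 50 before the log (1.15, limma adjusted p = 0.0196), with a floor of 30 (1.51, limma adjusted p = 0.0171) and with only the compared arrays (limma adjusted p = 0.0396). CD144 negative cells of day 6.5 stood above those of day 3.5 by 2.60 (SE 0.69, limma adjusted p = 0.135), and the CD144 difference at day 6.5 was smaller than at day 3.5 by 2.27 (SE 0.98), which the interaction test did not call (limma adjusted p = 0.35). Summed blood markers of CD144 negative cells were 697 to 746 at day 3.5 and 18546 to 20935 at day 6.5, with 3 of 9 called higher. Nearly all of the rise was in Hba-x (139 to 12603) and Hbb-y (22.2 to 6072). Gata1 (87.4 to 242), Klf1 (48.6 to 232), Itga2b (201 to 314), Spi1 (49.9 to 87.8), Csf1r (129 to 162) and Ptprc (12 to 20.7) also rose in mean signal. Fcer1g fell from 32.3 to 6.46, both under the median of all signals. Between the same cells, summed visceral endoderm markers went from 3959 to 4208 up to 7420 to 8084, with 4 of 8 called higher, and summed fibroblast markers from 699 to 741 up to 3578 to 3861, with 3 of 7 called higher. The part of these markers in the later Tfec signal was not tested.

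The study had named Tfec from these same arrays, in the comparison of CD144 positive with VEGF-R2 positive cells, so those values are given as a description. The study also lists Tfec as higher in CD144 positive than in CD144 negative embryo cells, on arrays that were not analysed here. Tfec was higher than in VEGF-R2 positive cells by 3.46 in CD144 positive cells of day 3.5 and by 3.79 in CD144 positive cells of day 6.5. Its change from VEGF-R2 to CD144 positive cells exceeded the change between the negative cells by 4.40 at day 3.5 and by 2.13 at day 6.5. The study also left out transcripts that changed between its negative populations, or from VEGF-R2 positive to CD144 negative cells. Its choice thus used the CD144 negative and VEGF-R2 negative arrays too, and favours genes higher in CD144 positive than in CD144 negative cells. The comparisons of CD144 positive with CD144 negative cells above use those same arrays. The comparison of CD41 with VEGF-R2 positive cells uses the same VEGF-R2 positive arrays, and its interaction the VEGF-R2 negative ones as well. None of these comparisons is independent of that choice. CD41 positive cells had a Tfec level that differed from CD144 positive cells of day 3.5 by 0.09 (95% interval -1.37 to 1.55, limma adjusted p = 0.964) and from those of day 6.5 by 0.42 (95% interval -1.04 to 1.88, limma adjusted p = 0.781). An interval this wide leaves room for a difference of more than 2-fold either way.

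In the order of Tfec levels, CD144 positive cells of day 6.5 came first, then CD144 positive and CD41 positive cells of day 3.5, then CD144 negative cells of day 6.5, VEGF-R2 negative and VEGF-R2 positive cells of day 2.5, and last CD144 negative and CD41 negative cells of day 3.5. The arrays of neighbouring populations overlapped between CD144 positive and CD41 positive cells of day 3.5 and at each of the last 3 steps. None of the neighbours that were compared directly differed past the threshold, the largest of the 4 such steps being that from VEGF-R2 negative cells up to CD144 negative cells of day 6.5, 1.65 (SE 0.69, limma adjusted p = 0.179).

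**Figure D2:**
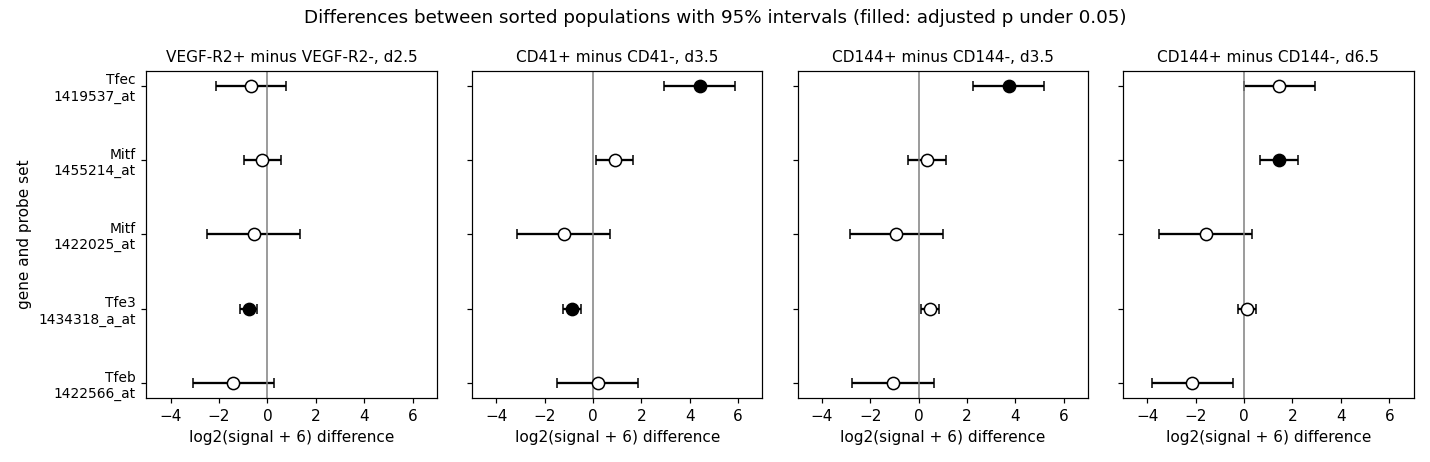
Difference in log2(signal + 6) between positive and negative cells of the same day for the 5 probe sets of the family, with 95% intervals from limma, filled where the adjusted p was under 0.05. Tfec is filled in both comparisons of day 3.5, 4.41 and 3.72, Mitf (1455214_at) at day 6.5 only, 1.45, and Tfe3 for VEGF-R2 and CD41, both below 0.

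Mitf was measured by 2 probe sets that did not follow each other. The brighter one, 1455214_at, gave 85.4 and 99.2 in VEGF-R2 positive and 92.4 and 125 in VEGF-R2 negative cells. It gave 289 and 260 in CD41 positive against 156 and 135 in CD41 negative cells, and 95.7 and 226 in CD144 positive against 101 and 129 in CD144 negative cells of day 3.5. In CD144 positive cells of day 6.5 it gave 385 and 442, the highest of the 16 arrays, against 164 and 131 in CD144 negative cells. By this probe set Mitf was high in CD41 positive cells and in the later CD144 positive cells, while the 2 arrays of the earlier CD144 positive cells lay far apart.

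At day 6.5 Mitf (1455214_at) was higher in CD144 positive than in negative cells by 1.45 (SE 0.37, limma adjusted p = 0.00958), 2.74-fold on the offset scale, and it was the only 1 of the family's 5 probe sets called there, where 19.5% of all probe sets were. Without the second CD144 negative array the adjusted p was 0.0737 and without the second CD144 positive array 0.07. The difference between CD41 positive and negative cells, 0.89 (SE 0.37), was not called (limma adjusted p = 0.0823). For CD144 at day 3.5 it was 0.35 (limma adjusted p = 0.565).

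Against VEGF-R2 positive cells, Mitf (1455214_at) was higher by 1.51 in CD41 positive cells (SE 0.37, limma adjusted p = 0.0133) and by 2.09 in CD144 positive cells of day 6.5 (SE 0.37, limma adjusted p = 0.000786). In the last comparison 15.5% of all probe sets were called. Of the family's probe sets, leaving aside Tfec, which is given there without a test, only this Mitf probe set was called. The call for CD41 positive cells was lost without the first array of either population, at adjusted p of 0.0756 and 0.0711, and with only the compared arrays (0.0978). CD144 positive cells of day 6.5 also exceeded those of day 3.5, by 1.45 (SE 0.37, limma adjusted p = 0.029), where 5.84% of all probe sets were called, and Mitf was the 1 probe set of the family among them. This call was lost without the first day 3.5 array (0.85) and without either day 6.5 array. It was also lost under quantile normalization (limma adjusted p = 0.0513) and with only the compared arrays (0.0741). The same held with the positive populations alone (0.0926) and with a robust prior without trend (0.0665). Between the same CD144 positive cells of days 3.5 and 6.5, summed fibroblast markers went from 1092 to 1215 up to 6307 to 7572, with 5 of 7 called higher, and summed visceral endoderm markers from 2317 to 2586 up to 9241 to 10119, with 3 of 8 called higher. At day 6.5 the fibroblast sum was 3578 to 3861 in CD144 negative cells. The part of these markers in the Mitf signal was not tested.

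The dimmer Mitf probe set, 1422025_at, lay below the median of all signals on 15 of 16 arrays and was called in none of the comparisons. It gave 8.44 and 8.69 in CD144 positive cells of day 6.5 against 55.5 and 25 in CD144 negative cells, the opposite order to the brighter probe set, with a difference of -1.58 (SE 0.91, limma adjusted p = 0.258). In CD41 positive cells its arrays gave 83.8 and 5.36, and in CD41 negative cells 52.7 and 86.7. When the 2 probe sets were averaged, the Mitf CD144 difference at day 6.5 was -0.07 (limma adjusted p = 0.944). The calls against VEGF-R2 positive cells were lost too, at 0.98 for CD144 positive cells of day 6.5 (limma adjusted p = 0.184) and 1.26 for CD41 positive cells (limma adjusted p = 0.111), as was that between CD144 positive cells of both days (0.28, limma adjusted p = 0.795). RefSeq gives Mitf 3 starts with a window of their own, before chr6:97807057, chr6:97929816 and chr6:97991782, and which transcripts the 2 probe sets detect is not given in the sources used here.

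Tfe3 had a high signal in all 8 populations, and its differences were small but tight. In VEGF-R2 positive cells it gave 983 and 1464 against 2083 and 2046 in VEGF-R2 negative cells. In CD41 positive cells it gave 645 and 791 against 1329 and 1296 in CD41 negative cells, and these 2 positive arrays were the lowest of all 16. In CD144 positive cells of day 3.5 it gave 1531 and 1761 against 1127 and 1226 in CD144 negative cells. At day 6.5 it gave 1204 and 1172 in CD144 positive and 1126 and 1073 in CD144 negative cells, hardly apart.

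Tfe3 was lower in VEGF-R2 positive than negative cells by 0.78 on the log2 scale (difference -0.78, SE 0.17, limma adjusted p = 0.0028), the 1 family probe set called at day 2.5, where 24.9% of all probe sets were called. Without the first VEGF-R2 positive array the difference was -0.49 and the adjusted p 0.0525. It was lower in CD41 positive than negative cells as well (-0.87, SE 0.17, limma adjusted p = 0.000837), 0.546 of the CD41 negative level on the offset scale. In CD144 cells the sign turned: 0.48 at day 3.5 (SE 0.17, limma adjusted p = 0.0584) and 0.11 at day 6.5 (limma adjusted p = 0.718), neither of them called. The first of these was called under quantile normalization (0.58, limma adjusted p = 0.027), without dim probe sets (limma adjusted p = 0.043) and with only the compared arrays (limma adjusted p = 0.0353).

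Among the positive populations Tfe3 separated the CD41 from the CD144 sort. It was higher in CD144 positive than in CD41 positive cells of day 3.5 by 1.19 (SE 0.17, limma adjusted p = 0.000184), 2.29-fold on the offset scale, the 1 family probe set among the 9.78% of probe sets called. CD144 positive cells of day 6.5 also exceeded CD41 positive cells, by 0.73 (SE 0.17, limma adjusted p = 0.00776), again the 1 family probe set, where 13.9% of all were called, and this was lost without the first CD41 positive array (0.58, limma adjusted p = 0.084). CD41 positive cells were below VEGF-R2 positive cells (-0.74, SE 0.17, limma adjusted p = 0.00932), a call that was lost without the second VEGF-R2 positive array (-0.46, limma adjusted p = 0.138) or the first CD41 positive array (-0.60, limma adjusted p = 0.0913). It was also lost with only the compared arrays (limma adjusted p = 0.138), with the positive populations alone (0.052) and with a robust prior without trend (0.0831), and the call between CD144 positive cells of day 6.5 and CD41 positive cells was lost with only the compared arrays (0.0676) and with the robust prior (0.0719). CD144 positive cells of day 3.5 did not differ past the threshold from VEGF-R2 positive cells (0.45, SE 0.17, limma adjusted p = 0.128), in a comparison with 7.71% of probe sets called. None of the family's probe sets was called there, leaving aside Tfec, which is again given without a test.

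The interactions tested whether the differences and changes of Tfe3 differed between sorts, not whether a sign turned. The CD144 difference of day 3.5 exceeded the CD41 difference of that day by 1.35 (SE 0.24, limma adjusted p = 0.002), where 5.62% of all probe sets were called. The change of Tfe3 from VEGF-R2 to CD144 positive cells exceeded that of the negative cells by 1.26 at day 3.5 (SE 0.24, limma adjusted p = 0.00402), with 5.30% of probe sets called, and by 0.89 at day 6.5 (SE 0.24, limma adjusted p = 0.0427), with 4.84% called. The last of these was lost in 7 of the 8 fits that left out 1 array and under 4 other settings. The negative populations differed among themselves. Against VEGF-R2 negative cells, Tfe3 was lower in CD41 negative cells by 0.65 (difference -0.65, limma adjusted p = 0.0445, lost without any 1 of the 4 arrays), in CD144 negative cells of day 3.5 by 0.81 (difference -0.81, limma adjusted p = 0.00643, lost without the first of these or without either VEGF-R2 negative array) and in CD144 negative cells of day 6.5 by 0.91 (difference -0.91, limma adjusted p = 0.00234). Tfe3 was the 1 family probe set called in each, where 3.46%, 7.14% and 8.78% of all probe sets were called. Each call was lost with a robust prior without trend (limma adjusted p = 0.265, 0.0894 and 0.0501 in the same order). That for CD41 negative cells was also lost with a floor of 30 (limma adjusted p = 0.0706).

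The summed signal of 6 pluripotency markers was lowest in CD41 positive cells, as Tfe3 was, but the order of the other populations differed. It was 1912 to 5946 there and 10818 to 12194 in VEGF-R2 positive cells, against 61333 to 61436 in CD41 negative, 37292 to 38533 in VEGF-R2 negative and 38953 to 45043 in CD144 positive cells of day 3.5. It was 29581 to 30481 in CD144 negative cells of day 3.5, 20841 to 23909 in CD144 positive cells of day 6.5 and 32361 to 32622 in CD144 negative cells of day 6.5, all above VEGF-R2 positive cells, while the Tfe3 signals of these cells lay between the 983 and 1464 of VEGF-R2 positive cells. Its part in the Tfe3 signal was not tested.

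Tfeb had signals around the median of all probe sets, and its duplicates were far apart in VEGF-R2 positive and in CD144 positive day 3.5 cells. In VEGF-R2 positive cells it gave 12.6 and 143, and in VEGF-R2 negative cells 148 and 122. In CD41 positive cells it gave 79.9 and 111 against 60.1 and 111 in CD41 negative cells, and in CD144 positive cells of day 3.5 it gave 26.7 and 119 against 152 and 106. In CD144 positive cells of day 6.5 it gave 30.6 and 19.5 against 90.9 and 182 in CD144 negative cells, the one pair of same-day populations whose arrays did not overlap.

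None of the comparisons called Tfeb in the limma fit of all arrays. The difference at day 6.5 was -2.14 (SE 0.79, limma adjusted p = 0.0704), and it was called with the replicate number as a block (limma adjusted p = 0.0484). At day 2.5 it was -1.42 (SE 0.79, limma adjusted p = 0.219), and 1 array decided it, with -2.92 (limma adjusted p = 0.0148) without the second VEGF-R2 positive array and 0.08 without the first. The CD41 difference was 0.19 (95% interval -1.50 to 1.87) and the CD144 difference at day 3.5 was -1.06 (95% interval -2.74 to 0.62). Among the positive populations the widest gap was that of CD144 positive cells of day 6.5 below CD41 positive cells, -1.71 (95% interval -3.39 to -0.03, limma adjusted p = 0.188).

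Taking the 8 population means of each gene's brightest probe set, Tfec and Mitf had a Pearson r of 0.73, Tfec and Tfe3 of -0.27, Tfec and Tfeb of -0.38 and Mitf and Tfe3 of -0.48. These are descriptions over 8 points that share arrays. The genes whose population means most resembled those of Tfec, among genes above the median signal, were Akap5 (r = 0.96), an anchor of protein kinase A, Zfp397 (r = 0.96), a zinc finger protein, Mef2c (r = 0.95), a transcription factor of heart and vessel, Asb7 (r = 0.95), Ednrb (r = 0.95), the endothelin receptor B, and Sertad1 (r = 0.95). They were picked for likeness over the same 8 means, so the likeness itself is no result. Their sizes of change differed widely. Ednrb ran from a mean signal of 4.83 in CD41 negative cells to 1548 in CD144 positive cells of day 6.5 and Mef2c from 38.8 in CD144 negative cells of day 3.5 to 811 in the same population, while Asb7 moved only between 678 and 940.

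**Figure D3:**
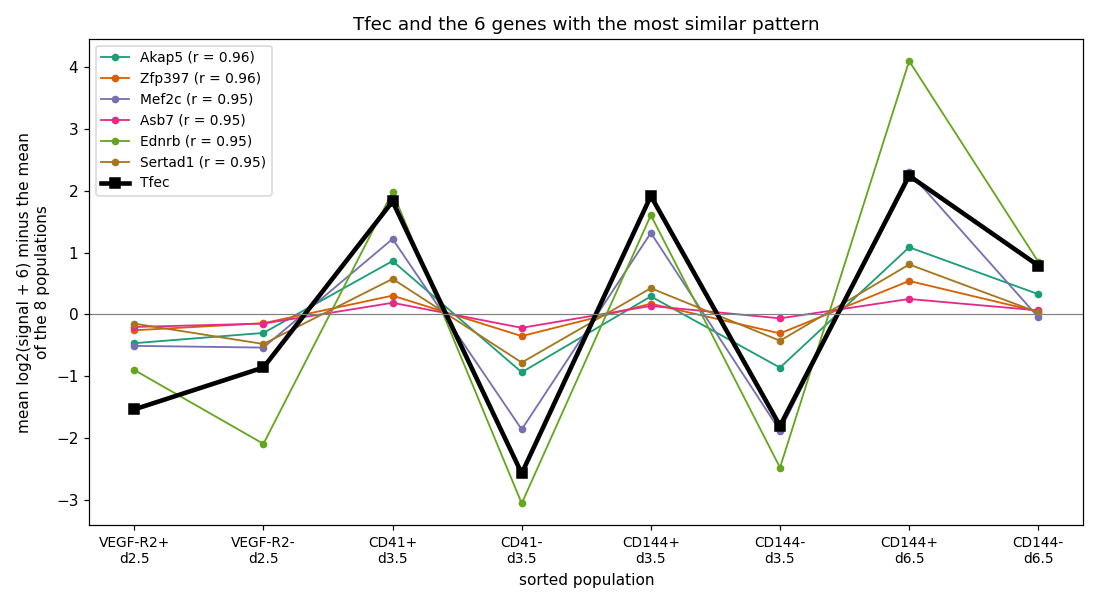
Mean log2(signal + 6) of Tfec (black squares) and of the 6 genes with the highest Pearson r to it in the 8 sorted populations, each centred on its own mean. The 3 highest points are those of CD41 positive, CD144 positive day 3.5 and CD144 positive day 6.5 cells, except for Akap5, whose CD144 negative day 6.5 cells (6.99) stand level with CD144 positive day 3.5 cells (6.96), with Ednrb reaching further than Tfec and Asb7 hardly moving.

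Genes known to be bound or regulated by the family, or to regulate it, were followed in lists, 1 probe set a gene. Of the 7 lists, the last holds other factors with a basic helix-loop-helix and leucine zipper instead. Counts of called genes are set beside the share of all genes called: 16% higher and 13.7% lower for VEGF-R2, 19.2% and 17.2% for CD41, 13.7% and 10.3% for CD144 at day 3.5 and 13.4% and 11.9% for CD144 at day 6.5.

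Lysosomal hydrolases and their cofactors, the enzymes that break down proteins, lipids and sugars in lysosomes, had 25 measured members. Called higher were 10 in VEGF-R2 positive, 10 in CD41 positive, 5 in CD144 positive day 3.5 and 10 in CD144 positive day 6.5 cells, and called lower were 2, 1, 1 and 0. The median difference was 0.46, 0.27, 0.10 and 0.42, against 0.16, 0.18, 0.17 and 0.14 over all genes. Lipa, the lysosomal acid lipase, rose from 720 in CD144 negative to 2595 in CD144 positive cells of day 6.5 (1.84, SE 0.21, limma adjusted p = 9.03e-06) and was also called higher in both day 3.5 comparisons, by 1.0 and 1.22. In CD41 positive cells Gusb, the beta-glucuronidase, was higher by 1.25 (SE 0.16) and Galns, a sulfatase, by 1.16 (SE 0.24), while Scpep1, a serine carboxypeptidase, was lower (-1.66, SE 0.21).

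Because CACGTG is the site that Tfeb and Tfe3 are known to prefer in lysosomal genes, the same 250-base windows were searched for it. It was found in 11 of 24 windows of hydrolase genes, 8 of 22 of the lysosomal membrane and proton pump and 3 of 17 of autophagy genes, against 6.02% of all windows. By gene this was 11 of 22, 8 of 19 and 3 of 16. These lists were chosen as genes known for regulation by the family, so a high share of its site can follow from that choice and is no result of these data. The longer TCACGTGA, which holds CACGTG within it, was found in 4 of the 24 windows of hydrolase genes and in 0.785% of all windows. Of the 11 hydrolase genes with CACGTG, 4 were called higher in CD144 positive cells of day 6.5 and 7 were not, against 10 of 25 called in the list. The letters follow for the 4 hydrolase genes called higher in CD144 positive cells of day 6.5, Arsa (1.16), Ctsa (0.87), Ctsl (1.06) and Naglu (0.87), and for 2 of the 7 that were not called, Glb1 (0.33) and Sumf1 (-0.59), in GRCm38.p6 with CACGTG in capitals.
Arsa, chr15:89477427-89477448 (minus strand): ctcagtgtCACGTGttgtctgc
Ctsa, chr2:164833753-164833772 (plus strand): caaactgtCACGTGatgcag
Ctsl, chr13:64370743-64370764 (minus strand): ttagaagcCACGTGctgatcta
Naglu, chr11:101070013-101070034 (plus strand): cttcaggtCACGTGgcccgagg
Glb1, chr9:114401022-114401043 (plus strand): ttctgagtCACGTGgcctacag
Sumf1, chr6:108185584-108185602 (minus strand): ccacaggtCACGTGatctc
Genes with and without a call thus carried the same letters, and a match is a description of the window, not evidence of binding.

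The lysosomal membrane and proton pump list had 24 measured members and moved both ways. Called higher were 5 in VEGF-R2 positive, 6 in CD41 positive, 3 in CD144 positive day 3.5 and 4 in CD144 positive day 6.5 cells, and called lower were 4, 3, 6 and 4. Subunits of the same pump went in opposite directions. Atp6v1a was higher in the 3 CD41 and CD144 comparisons, by 1.19, 0.90 and 1.0 (SE 0.13 each), and Atp6v1b2 lower in all 3, by -1.45, -1.82 and -1.16 (SE 0.14 each). Atp6v0a1, another subunit, was higher in CD41 positive cells by 1.15 (SE 0.31), and Npc1, which moves cholesterol out of lysosomes, was lower there (-1.37, SE 0.24).

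Autophagy genes had 20 measured members, with 3, 7, 4 and 7 called higher and 2, 3, 2 and 3 called lower in the 4 comparisons in the same order. Gabarapl1 and Gabarap, small proteins that are attached to the growing autophagosome, had the largest rises. Gabarapl1 went from 3049 in CD144 negative to 12511 in CD144 positive cells of day 6.5 (2.04, SE 0.12, limma adjusted p = 1.12e-08) and Gabarap from 4824 to 15937 (1.73, SE 0.17, limma adjusted p = 1.9e-06). Both were also higher in CD41 positive cells, by 1.34 and 1.45. Atg9a, a membrane protein of early autophagosomes, was higher in CD41 positive cells by 1.25 (SE 0.21), and Atg5, part of the enzyme that attaches the Gabarap proteins, was lower in all 3 CD41 and CD144 comparisons, by -0.89, -1.13 and -1.15 (SE 0.20 each).

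The list on control of the place of the proteins in the cell holds the Rag GTPases, folliculin and its partners, the Ragulator, calcineurin and 14-3-3 proteins. Of 23 measured members 6, 5, 2 and 3 were called higher and 5, 5, 7 and 6 lower. Rragd, the Rag GTPase that brings Tfeb and Tfe3 to the lysosome, was lower in CD41 positive cells, 480 against 2878 (-2.68, SE 0.24, limma adjusted p = 2.35e-07), and less so in CD144 positive cells of day 6.5 (-0.89, limma adjusted p = 0.0126). Fnip2, a partner of folliculin, was lower in all 3 CD41 and CD144 comparisons, by -1.58, -1.14 and -1.30 (SE 0.15 each), and Fnip1 in both of day 3.5, by -1.68 and -1.76 (SE 0.27 each). Ppp3ca, a catalytic subunit of the calcineurin that removes phosphate from Tfeb, was higher in CD41 positive cells by 1.32 (SE 0.18) and in CD144 positive cells of day 6.5 by 0.73 (SE 0.18).

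Melanocyte targets and regulators of Mitf had 15 measured members, of which 1, 3, 1 and 4 were called higher and 0, 1, 1 and 1 lower. Ednrb was higher in CD41 positive cells by 5.04, in CD144 positive cells of day 3.5 by 4.09 and of day 6.5 by 3.25 (SE 0.68 each), and Lef1, a factor of Wnt signalling, was lower in all 3, by -2.70, -2.0 and -1.26 (SE 0.26 each). Dct, an enzyme of melanin synthesis, had a mean signal of 182 in CD144 positive against 20.1 in CD144 negative cells of day 6.5 (3.02, SE 0.75, limma adjusted p = 0.00856). Slc45a2, a melanosome transporter, had 121 in CD41 positive against 14.1 in CD41 negative cells (2.65, SE 0.89, limma adjusted p = 0.0325). Ednrb is also known from endothelial cells. Of 8 markers of melanocytes and pigment epithelium, Dct was the 1 called in any of these 4 comparisons, their summed signal was 683 to 777 in CD144 positive cells of day 6.5 and 324 to 607 elsewhere, and 1 to 3 of them had a mean above the median of all signals.

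Targets in osteoclasts, macrophages and mast cells had 19 measured members, with 2, 3, 3 and 2 called higher and 2, 2, 1 and 1 lower. Itgb3, the integrin beta chain that pairs with CD41, was higher by 6.52, 4.87 and 3.82 in the CD41, CD144 day 3.5 and CD144 day 6.5 comparisons (SE 0.65 each), and Spi1 (PU.1), an ETS factor of blood cells, by 4.80, 2.79 and 2.96 (SE 0.35 each). Calcr, the calcitonin receptor, was lower in CD144 positive cells of day 6.5, 3.25 against 313 (-5.11, SE 0.37, limma adjusted p = 9.7e-08). Mcpt4, a mast cell protease, had 62.6 in CD144 positive against 2.24 in CD144 negative cells of day 3.5 (2.82, SE 0.75, limma adjusted p = 0.0125). Summed mast cell markers stayed between 80.8 and 282 on every array with at most 1 of 7 above the median of all signals, and summed macrophage and osteoclast markers between 770 and 2248. Of 7 macrophage and osteoclast markers, 5 had a mean above that median in each of the 3 positive populations of days 3.5 and 6.5, and 3 or 4 in the negative cells. Lyz2, lysozyme, had 400 in CD144 positive against 37.8 in CD144 negative cells of day 6.5.

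Other factors with a basic helix-loop-helix and leucine zipper had 18 measured members, with 1, 3, 1 and 2 called higher and 4, 6, 7 and 4 lower. Usf1 was lower in the 3 CD41 and CD144 comparisons, by -2.21, -2.08 and -1.36 (SE 0.31 each), and Mycl as well, by -2.98, -1.53 and -1.66 (SE 0.37 each). Myc was higher in CD41 positive cells by 1.38 (SE 0.25, limma adjusted p = 0.000453) and lower in CD144 positive cells, by -1.53 at day 3.5 and -1.57 at day 6.5. Mlxipl, a factor of sugar metabolism, was lower in CD41 positive cells, 71.8 against 286 (-1.93, SE 0.44, limma adjusted p = 0.00261).

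**Figure D4:**
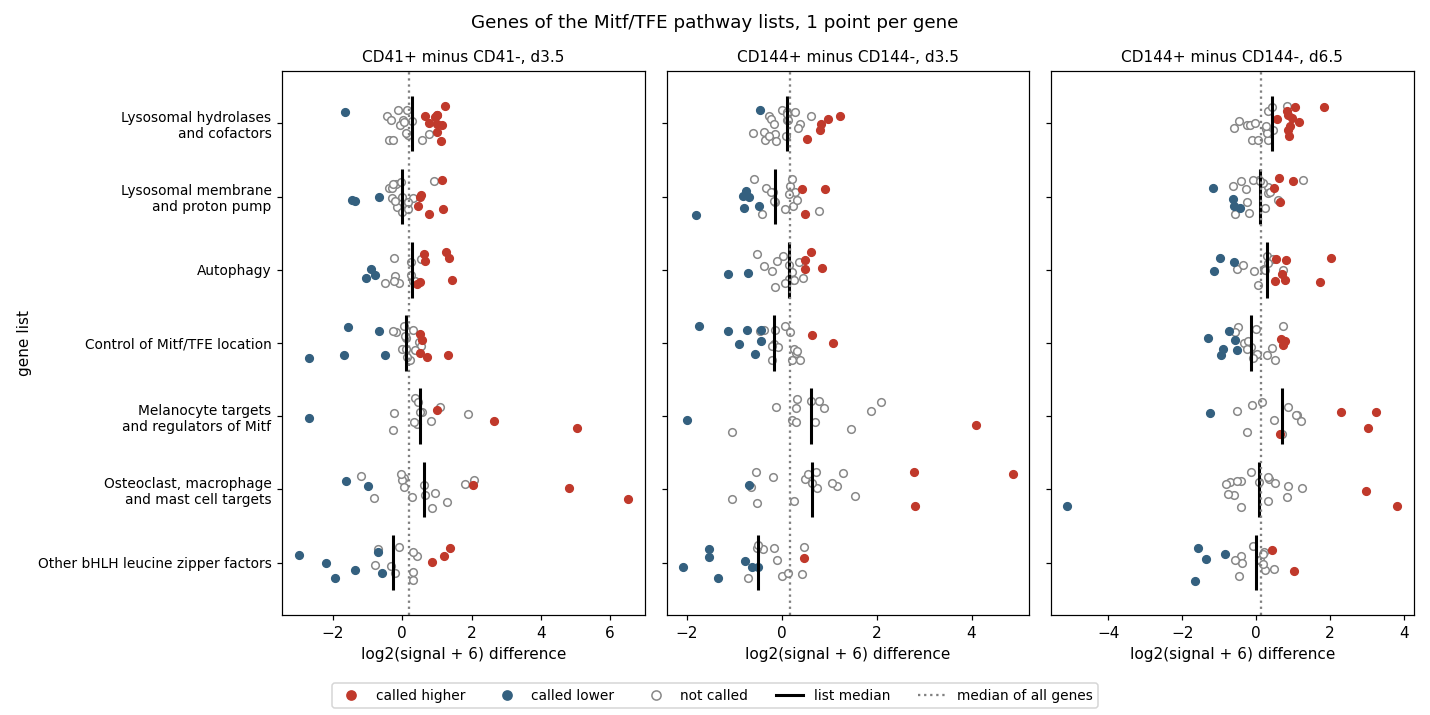
Difference in log2(signal + 6) between positive and negative cells for the genes of the 7 lists, 1 point a gene, filled where called, with the list median (bar) and the median of all genes (dotted line, 0.18, 0.17 and 0.14 from left to right). Most lists hold genes on either side of 0, Itgb3 (6.52) and Ednrb (5.04) reach furthest up for CD41, and Calcr (-5.11) furthest down at day 6.5.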

How the data were processed

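The authors computed the deposited intensity values with MAS5 from Affymetrix arrays. They are linear and were scaled on each array to a trimmed mean of about 500 (499.804 to 499.848 as checked here). The MAS5 version is not given in the sources used here. The study's own lists rest on another program, whose values were not used here, and arrays of embryo cells were not analysed here. Of 45101 probe sets 64 controls were left out, and 34945 of the rest have 1 gene symbol, 932 several and 9160 none in the annotation of the platform. Populations were taken from the sample titles.

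Signals plus 6 were taken to log2 and all 16 arrays were fitted in limma 3.58.1 (R 4.3.3) as 8 group means, with a prior that follows signal and Benjamini-Hochberg adjustment over 45037 probe sets. The code was tested on simulated data. Of several probe sets, a gene outside the family kept the brightest on average. Named are all family probe sets, the 6 genes most like Tfec, the 3 sorting markers and up to 4 called genes of each list with the largest change, and the hydrolase genes shown with their letters were chosen after their values were seen. Some listed genes are not reported here. Alternatives were quantile normalization, an offset of 1 or 50, a floor of 30, a filter on dim probe sets, only the compared arrays, positive or negative populations alone, a robust prior without trend, the replicate number as a block, the mean of a gene's probe sets, and each array left out. The members and lists were chosen with earlier results of these data known. Promoter windows are from RefSeq (GRCm38.p6), and figures were drawn with matplotlib 3.10.9.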

Additional observations from a re-analysis of the deposited data

Results flagged for a closer look

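Apart from Tfec in the CD144 comparisons with VEGF-R2 positive cells, for which the study chose it and which are given without a test, for 4 results the effect differed between sorts by an interaction test in limma. For Tfec, the change from VEGF-R2 to CD41 positive cells exceeded the change between the negative cells of those days by 5.09 (SE 0.98, adjusted p = 0.00445). For Tfe3, the change from VEGF-R2 to CD144 positive cells exceeded that between the negative cells by 1.26 at day 3.5 (SE 0.24, adjusted p = 0.00402) and by 0.89 at day 6.5 (SE 0.24, adjusted p = 0.0427), and the difference of CD144 positive from negative cells exceeded that of CD41 positive from negative cells by 1.35 (SE 0.24, adjusted p = 0.002). The Tfec value and 2 of the Tfe3 values use the VEGF-R2 positive and negative arrays, and the 4 values are therefore not independent of each other. The Tfec value is also not independent of the study's choice of Tfec, which used the VEGF-R2 positive and negative arrays.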

How the results depend on the processing

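The Tfec calls between the CD41 fractions, between the CD144 fractions of day 3.5, from VEGF-R2 to CD41 positive cells and in the CD41 interaction kept their direction and call under every alternative run. The day 6.5 difference of Tfec passed the threshold at an offset of 50 (1.15), with a floor of 30 (1.51) and with only the compared arrays (1.46). With the mean of both probe sets the Mitf differences reversed for CD41 (-0.16), CD144 at day 3.5 (-0.28), CD144 at day 6.5 (-0.0651) and between CD144 positive cells of day 6.5 and CD41 positive cells (-0.28), since the probe sets disagree, and 3 Mitf calls between positive populations were lost, at 0.98, 1.26 and 0.28. Under quantile normalization the CD41 difference of Mitf was 1.11 and called, and the day 3.5 CD144 difference of Tfe3 0.58 and called. The latter, 0.48, was also called without dim probe sets, with only the compared arrays and with the replicate block. Correlations of duplicate differences between populations ran from -0.0468 to 0.0472 over 28 pairs, so no effect shared by replicate number was seen over the probe sets. This does not settle whether fractions with the same replicate number came from the same experiment. With the replicate block the Tfeb difference at day 6.5, -2.14, was also called (adjusted p = 0.0484), and the calls over all probe sets went from 11214, 13207, 9022 and 8774 to 11364, 13313, 9152 and 8922. With each array left out in turn, the values ran from -0.24 to 0.95 (Mitf, CD144 day 3.5), 1.30 to 1.61 (Mitf, CD144 day 6.5), -1.07 to -0.49 (Tfe3, VEGF-R2), -0.30 to 0.27 (Tfe3, CD144 positive day 6.5 against VEGF-R2 positive), -2.92 to 0.0808 (Tfeb, VEGF-R2), -0.23 to 0.60 (Tfeb, CD41), -1.70 to 0.34 (Tfec, VEGF-R2) and -0.23 to 0.40 (Tfec, CD144 against CD41 positive). Of all such values, 163 kept direction and call, 26 lost the call, 3 gained it and 8 turned sign. An array left alone in its group is assumed to vary like the others. The robust prior without trend ended 8 calls, among them Tfe3 against VEGF-R2 negative cells and in both CD144 changes from day 2.5. It moved 27 of 56 list counts by over 1.5 times or to or from 0, against 9 under quantile normalization and at most 5 under the other settings. Over all probe sets it left 8630, 11144, 6382 and 6040 calls for VEGF-R2, CD41 and CD144 at days 3.5 and 6.5. The cause was not tested. The 25th percentile of all signals was 23.4, and several Tfec and Tfeb values lie below it.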
